A study of Mus musculus with 10 samples.

Results

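The genes described here are 35 antiviral genes that type I interferon induces, together with the STAT and IRF factors that switch them on. They were chosen by symbol from the deposited table of normalized counts, and kept where at least 10 normalized counts were held in at least 2 of the 10 libraries. Of the 35 genes, 32 passed, out of 15716 genes that passed among the 48825 of the table. Ifi44 was at 0 in every library, Oasl1 was above 0 only in CSF1Ri 1, at 3, and Oas2 was above 0 only in Control 3, at 24. The members that passed with the fewest libraries at 10 or more were Mx2, with 3 such libraries, and Rsad2, with 4.

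The libraries are mRNA from melanomas of mice that carry BrafCA and Tyr::CreER, in which an inducible Cre under the tyrosinase promoter acts in melanocytes. Every group, the control included, was of the same strain, although a genotype label reads wild type. Control mice had normal chow and the PBS vehicle (3 libraries), CSF1Ri mice had chow with PLX6134, an inhibitor of the CSF1 receptor, at 600 mg/kg (2 libraries), CD40 mice had the agonistic antibody FGK4.5 at 10 mg/kg into the peritoneum (3 libraries), and CSF1Ri+CD40 mice had both (2 libraries). Treatment began 30 days after tumor induction, mice were age-matched with no age stated, and each library pooled at least 3 tumors, so p-values measure the spread between pools. The library called CSF1Ri 1 here has no number in its title. Titles call the libraries T cells, whereas a tissue label names macrophages, and the protocol gives no step that selects T cells. Cd3e, a chain of the T cell receptor complex, held 10586 to 23096 normalized counts. The summed macrophage markers held 862 to 1214 in control, 518 to 893 in CSF1Ri, 590 to 2684 in CD40 and 557 to 963 in CSF1Ri+CD40 libraries.

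Type I interferons bind the receptor made of Ifnar1 and Ifnar2, whose kinases Jak1 and Tyk2 phosphorylate STAT factors, Stat2 among them. Stat2 and Irf9 belong to the complex ISGF3, which binds the interferon-stimulated response element (ISRE) in promoters of antiviral genes. The products degrade or bind viral RNA, sense foreign nucleic acid, or modify proteins by attaching the ubiquitin-like protein Isg15. In tumors this programme is known from dendritic cells, macrophages and T cells alike, and interferon gamma, made by T cells, induces many of the same genes through the GAS element.

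Promoter sequence from RefSeq (GRCm38.p6) was found for 24 of the 32 members, and the 250 bases before each start site were searched. For the ISRE the motif searched was GAAA, any 2 bases and GAAA again, or on the other strand TTTC, any 2 bases and TTTC again, and matches may overlap each other or a GAS match. It was present for 10 of the 24 members (41.7%), against 3.46% of 27025 genes. For the GAS the motif TTCNNNGAA, which reads the same on both strands, was present for 6 of the 24 (25.0%), namely Bst2, Eif2ak2, Ifit2, Isg20, Oas1a and Samhd1, against 8.13% of genes. No promoter was read for Dhx58, Mx1, Mx2, Parp14, Parp9, Rtp4, Usp18 and Zbp1. The stretches below belong to members that held an ISRE match and whose values are described in full. The other 14 members with a promoter held no ISRE match. They run 5′ to 3′ on the gene's strand, with ISRE matches in capitals and positions in GRCm38.p6. They come from chr4:156200863-156200908 (minus strand) for Isg15, chr19:34640773-34640825 (plus) for Ifit1, chr19:34583361-34583428 (plus) for Ifit3, chr5:120907526-120907557 (minus) for Oas1a, chr12:26456551-26456584 (minus) for Rsad2, chr7:104465208-104465241 (minus) for Trim30a, chr10:128270264-128270297 (plus) for Stat2 and chr8:71537575-71537614 (minus) for Bst2.
Isg15: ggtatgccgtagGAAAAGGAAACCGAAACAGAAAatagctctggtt
Ifit1: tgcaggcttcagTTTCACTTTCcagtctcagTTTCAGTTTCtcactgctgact
Ifit3: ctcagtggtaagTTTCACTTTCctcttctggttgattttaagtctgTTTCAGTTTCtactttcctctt
Oas1a: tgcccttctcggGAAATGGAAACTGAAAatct
Rsad2: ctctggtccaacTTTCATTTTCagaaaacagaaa
Trim30a: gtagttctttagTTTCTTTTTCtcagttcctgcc
Stat2: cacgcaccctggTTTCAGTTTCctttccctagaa
Bst2: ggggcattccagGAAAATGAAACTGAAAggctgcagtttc

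Isg15 held 3 overlapping matches, between 78 and 57 bases before the start. Ifit1 held 2 separate matches between 104 and 76 bases before its start. Oas1a held 2 overlapping matches that ended 5 bases before its start, and Trim30a held 1 match 36 to 27 bases before its start. The stretch of Ifit3b, at chr19:34607757-34607824 (plus strand), was identical to that of Ifit3. Oas3 had the remaining matched promoter. Ifit3 and Ifit3b also share transcript sequence: 41.1% of the 75-base windows of Ifit3 occur in Ifit3b, and 35.7% of those of Ifit3b occur in Ifit3. For Oas1a 47.6% of windows occur in other genes, foremost Oas1g. Counts of Ifit3, Ifit3b and Oas1a are therefore uncertain where reads could have been split or dropped. Dtx3l and Parp9 overlap at their starts on opposite strands, and Dhx58 has an antisense gene, so unstranded reads from their shared stretches, 6.72% of the windows of Dtx3l, 6.63% of those of Parp9 and 2.13% of those of Dhx58, cannot be told apart.

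The 10 libraries had totals of 11538244 to 14024851 normalized counts, which are scaled and do not give the read depth. In principal components of the tested genes, CD40 3 stood apart on the first and CSF1Ri+CD40 3 and CD40 2 on the second. Control 1, CD40 2 and CD40 3 held 1569 to 3072 counts from Y-linked genes, and the other libraries 0 or 1. CD40 3 had the most Malat1, 95260, against a low of 14056 in Control 2, and the least mitochondrial RNA, 123380. CD40 2, CD40 3 and CSF1Ri+CD40 3 each held the highest value of 6 members. The part of these library differences in the members' values was not tested.

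Per kilobase of exon, the members' mean levels over the 10 libraries had a median of 62.7 normalized counts (n = 32), and the 15185 tested genes with a length had a median of 38.4. Of the 32 members, 20 lay above that of all genes. The highest levels per kilobase were 1223 for Ifi35, 627 for Samhd1 and 525 for Isg20. Ifi35 is an interferon-induced leucine zipper protein, Samhd1 is a dNTP hydrolase that limits retroviral replication, and Isg20 is an exonuclease that degrades RNA. Zbp1 (250), Rtp4 (236), Dtx3l (233) and Bst2 (232) followed, with library ranges that overlapped. The lowest levels per kilobase were 2.46 for Mx2, 2.58 for Rsad2 and 8.32 for Oas3. The highest library exceeded the lowest by 1.43 times for Irf7, 1.76 times for Samhd1, 1.83 times for Dtx3l and 1.94 times for Bst2, by 4.48 times for Isg20, and by 13.8 times for Oas3 and 45.3 times for Oasl2.

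**Figure D1:**
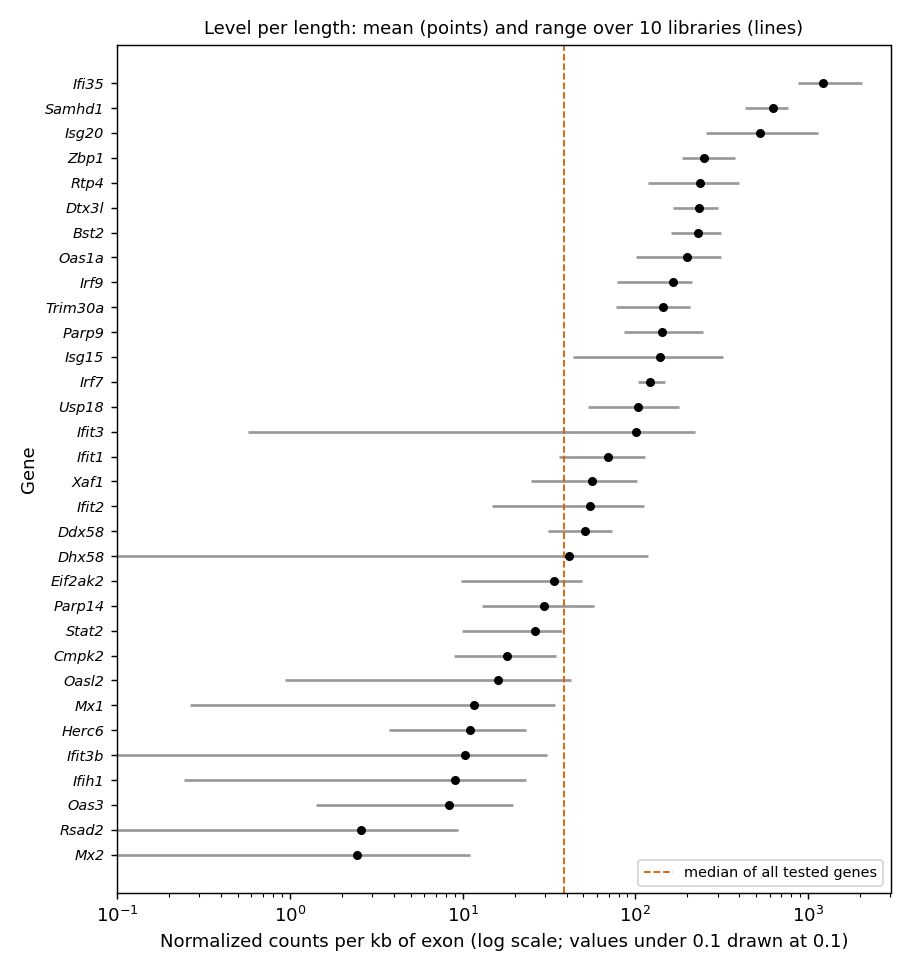
Mean level of each of the 32 members per kilobase of exon (x axis, normalized counts per kb, log scale; points) with the range over the 10 libraries (lines; values under 0.1 drawn at 0.1), ordered by level, with the median of all tested genes dashed. Ifi35, Samhd1 and Isg20 sit at the top and Oas3, Rsad2 and Mx2 at the bottom; the ranges reach 0 for Dhx58, Ifit3b, Rsad2 and Mx2.

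No member passed the test in any comparison at a Benjamini-Hochberg adjusted p under 0.05 in limma. Fold changes below are differences of mean log2(normalized count + 1), and counts by sign follow them. The added count understates the change of low genes. A single library near 0 can instead enlarge a difference or turn it against that of the mean counts. Dhx58 with both agents, for example, was at -2.85 on means of 73.0 against 99.3 in control. Ifit3 with the antibody was at -0.85 although its mean was 226 against 142 in control. In these bulk libraries, fewer cells of a type and less RNA per cell cannot be told apart.

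The IFIT proteins bind viral RNA that lacks the host's cap methylation. Ifit1 (chr19:34640871-34650009, plus strand) held 137, 96 and 145 normalized counts in control, 270 and 146 in CSF1Ri, 301, 111 and 199 in CD40, and 241 and 199 in CSF1Ri+CD40 libraries. Its CSF1Ri and CSF1Ri+CD40 libraries all lay above the control libraries, by as little as 1 count for CSF1Ri 6, and the CD40 libraries overlapped them. Ifit3, of the same family, held 117, 269 and 41 in control, 77 and 214 in CSF1Ri, 387, 291 and 1 in CD40, and 67 and 304 in CSF1Ri+CD40 libraries. All 4 groups overlapped for Ifit3, and CD40 held both its highest and its lowest library. Ifit2 had group means of 177 ± 126 (SD, n = 3) in control, 252 ± 141 (n = 2) in CSF1Ri, 229 ± 183 (n = 3) in CD40 and 213 ± 184 (n = 2) in CSF1Ri+CD40. Ifit3b, the copy of Ifit3, ranged from 0 in CD40 3 to 62 in Control 2.

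Mx proteins are GTPases that trap viral nucleocapsids, and the Mx genes of many laboratory mouse strains carry inactivating alleles. The annotation lists Mx2 as a polymorphic pseudogene. Mx1 (chr16:97447035-97462907, minus strand) held 60, 101 and 26 in control, 4 and 1 in CSF1Ri, 53, 6 and 129 in CD40, and 50 and 10 in CSF1Ri+CD40 libraries. Both CSF1Ri libraries lay below every other library for Mx1. Mx2 was at 0 in Control 1 and Control 2, at 4 in Control 3, at 11 and 40 in CSF1Ri, at 0 in the 3 CD40 libraries, and at 34 and 0 in CSF1Ri+CD40. Mx2 passed the filter only through 3 libraries given the inhibitor, so its higher values there are what kept it and are given as a description.

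The OAS enzymes make short adenylate chains that activate an RNA-degrading enzyme. Oas1a (chr5:120896256-120907521, minus strand) held 264, 385 and 294 in control, 304 and 290 in CSF1Ri, 435, 417 and 189 in CD40, and 576 and 591 in CSF1Ri+CD40 libraries. The combined treatment held the 2 highest Oas1a values, and the other 3 groups overlapped. Oasl2, a relative with ubiquitin-like domains, held 124, 105 and 43 in control, 70 and 200 in CSF1Ri, 101, 37 and 6 in CD40, and 61 and 272 in CSF1Ri+CD40 libraries, all groups overlapping. Oas3 ranged from 10 in CSF1Ri+CD40 1 to 138 in Control 3.

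Rsad2 (viperin; chr12:26442746-26456452, minus strand) makes a nucleotide that stops viral RNA chains, and Cmpk2 is a nucleotide kinase. Rsad2 held 8, 18 and 41 in control, 29 and 1 in CSF1Ri, 0 in each of the 3 CD40 libraries, and 4 and 11 in CSF1Ri+CD40. It passed the filter only through Control 2, Control 3, CSF1Ri 1 and CSF1Ri+CD40 3. Its lower values in CD40 libraries are therefore given as a description. Cmpk2 held 144, 99 and 52 in control, 41 and 45 in CSF1Ri, 37, 90 and 45 in CD40, and 86 and 110 in CSF1Ri+CD40 libraries. For Cmpk2 only the CSF1Ri libraries lay wholly below control, and for Rsad2 only the CD40 libraries did.

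Bst2 (tetherin), which holds budding virus at the cell surface, held 148, 283 and 215 in control, 227 and 177 in CSF1Ri, 234, 248 and 146 in CD40, and 155 and 264 in CSF1Ri+CD40 libraries. Samhd1 held 5570, 6970 and 5817 in control, 5861 and 5398 in CSF1Ri, 6134, 3950 and 5922 in CD40, and 5820 and 5913 in CSF1Ri+CD40 libraries. Neither gene separated any group from control, and the 4 group means of Bst2 lay between 202 and 215. Isg20 had means of 705 ± 212 (n = 3) in control, 826 ± 37.5 (n = 2) in CSF1Ri, 1265 ± 830 (n = 3) in CD40 and 1102 ± 50.9 (n = 2) in CSF1Ri+CD40. Its CD40 libraries ran from 475 to 2129. Ifi35 had a mean of 2014 ± 541 (n = 3) in control and 2500 ± 918 (n = 3) in CD40. Rtp4, a chaperone of G protein-coupled receptors, ranged from 252 in CD40 3 to 846 in CD40 2. Xaf1, a partner of an inhibitor of apoptosis, ranged from 117 in Control 2 to 477 in CD40 2.

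Among the sensors, Ddx58 (RIG-I) and Ifih1 (MDA5) detect viral RNA, and Dhx58 (LGP2) is their relative without signalling domains. Ddx58 held 269, 425 and 362 in control, 519 and 297 in CSF1Ri, 493, 302 and 294 in CD40, and 220 and 441 in CSF1Ri+CD40 libraries. Ifih1 held 27, 60 and 140 in control, 67 and 15 in CSF1Ri, 125, 2 and 191 in CD40, and 93 and 20 in CSF1Ri+CD40 libraries. Dhx58 held 40, 104 and 154 in control, 183 and 121 in CSF1Ri, 186, 389 and 32 in CD40, and 0 and 146 in CSF1Ri+CD40 libraries. All treated groups overlapped control for these 3 sensors. Zbp1, a sensor of Z-form nucleic acid that can start necroptosis, held 659, 831 and 873 in control, 770 and 677 in CSF1Ri, 1290, 1326 and 694 in CD40, and 867 and 837 in CSF1Ri+CD40 libraries. The 2 highest Zbp1 values were those of CD40 libraries and the remaining one, CD40 3, lay within control. Eif2ak2 (PKR), the kinase that halts translation on double-stranded RNA, held 226, 119 and 182 in control, 211 and 195 in CSF1Ri, 252, 135 and 50 in CD40, and 138 and 223 in CSF1Ri+CD40 libraries.

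Isg15 (chr4:156199424-156200818, minus strand) is attached to target proteins and removed by Usp18, which also blocks the interferon receptor. Isg15 held 33, 47 and 90 in control, 48 and 64 in CSF1Ri, 134, 208 and 77 in CD40, and 111 and 242 in CSF1Ri+CD40 libraries. Both combined libraries lay above control, 2 of 3 CD40 libraries did, and the CSF1Ri libraries lay within the control range. Usp18 held 296, 455 and 170 in control, 287 and 160 in CSF1Ri, 305, 148 and 236 in CD40, and 500 and 323 in CSF1Ri+CD40 libraries. The combined libraries of Usp18 lay above those of either treatment alone and overlapped control. Herc6, the mouse ligase for Isg15, ranged from 35 in Control 1 to 217 in CD40 3.

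Trim30a (chr7:104409025-104465193, minus strand), a TRIM protein that dampens Toll-like receptor signals, held 318, 605 and 622 in control, 654 and 649 in CSF1Ri, 569, 495 and 404 in CD40, and 747 and 847 in CSF1Ri+CD40 libraries. The inhibitor libraries, with or without antibody, all lay above control, the nearest at 649 against 622. Parp9 (chr16:35938470-35972605, plus strand) and Dtx3l form a complex of an ADP-ribosyltransferase and a ubiquitin ligase. Parp9 held 483, 711 and 551 in control, 1074 and 1201 in CSF1Ri, 594, 461 and 420 in CD40, and 890 and 558 in CSF1Ri+CD40 libraries. Its 2 highest values were those of the CSF1Ri libraries, whereas its partner Dtx3l had means of 1319 ± 292 (n = 3) in control and 1063 ± 167 (n = 2) in CSF1Ri. Parp14, another ADP-ribosyltransferase, held 412, 378 and 154 in control, 203 and 121 in CSF1Ri, 275, 232 and 540 in CD40, and 185 and 277 in CSF1Ri+CD40 libraries.

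Of the factors, Irf7 drives the later interferon response, and Irf9 and Stat2 belong to ISGF3. Irf7 held 511, 430 and 393 in control, 489 and 408 in CSF1Ri, 488, 428 and 562 in CD40, and 480 and 410 in CSF1Ri+CD40 libraries. Irf9 held 422, 1025 and 1048 in control, 661 and 1072 in CSF1Ri, 654, 943 and 918 in CD40, and 1038 and 1153 in CSF1Ri+CD40 libraries. Stat2 held 180, 59 and 224 in control, 115 and 142 in CSF1Ri, 186, 83 and 189 in CD40, and 206 and 167 in CSF1Ri+CD40 libraries. Each treated group overlapped control for all 3 factors, and Irf7 was the steadiest of the 32 members.

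**Figure D2:**
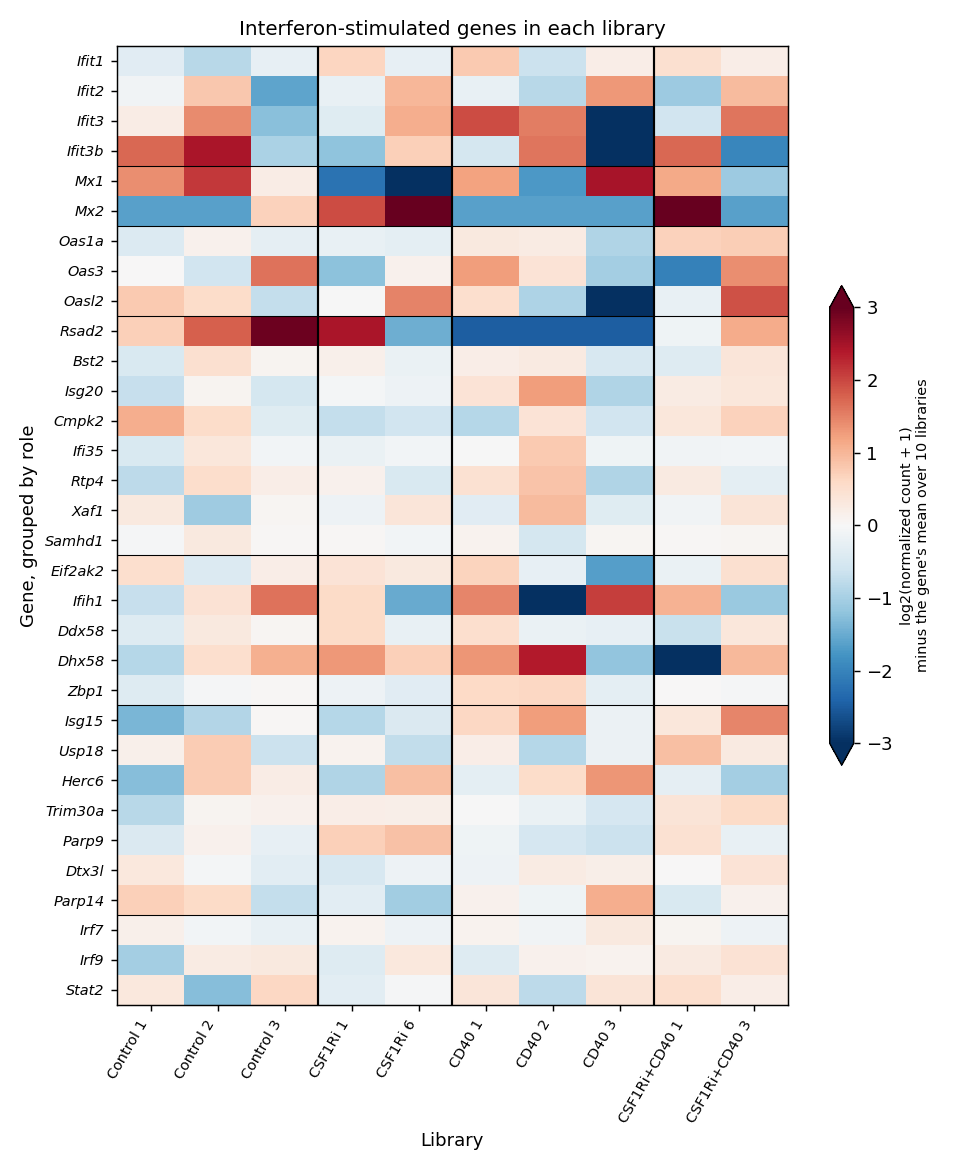
Each of the 32 members (rows, grouped by role) in each of the 10 libraries (columns, grouped by treatment), coloured by log2(normalized count + 1) minus the gene's mean over the libraries; the scale ends at 3 in either direction. Low genes such as Mx1, Mx2, Rsad2 and Ifit3b show the deepest colours, and no group of columns is high or low across all rows.

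**Figure D3:**
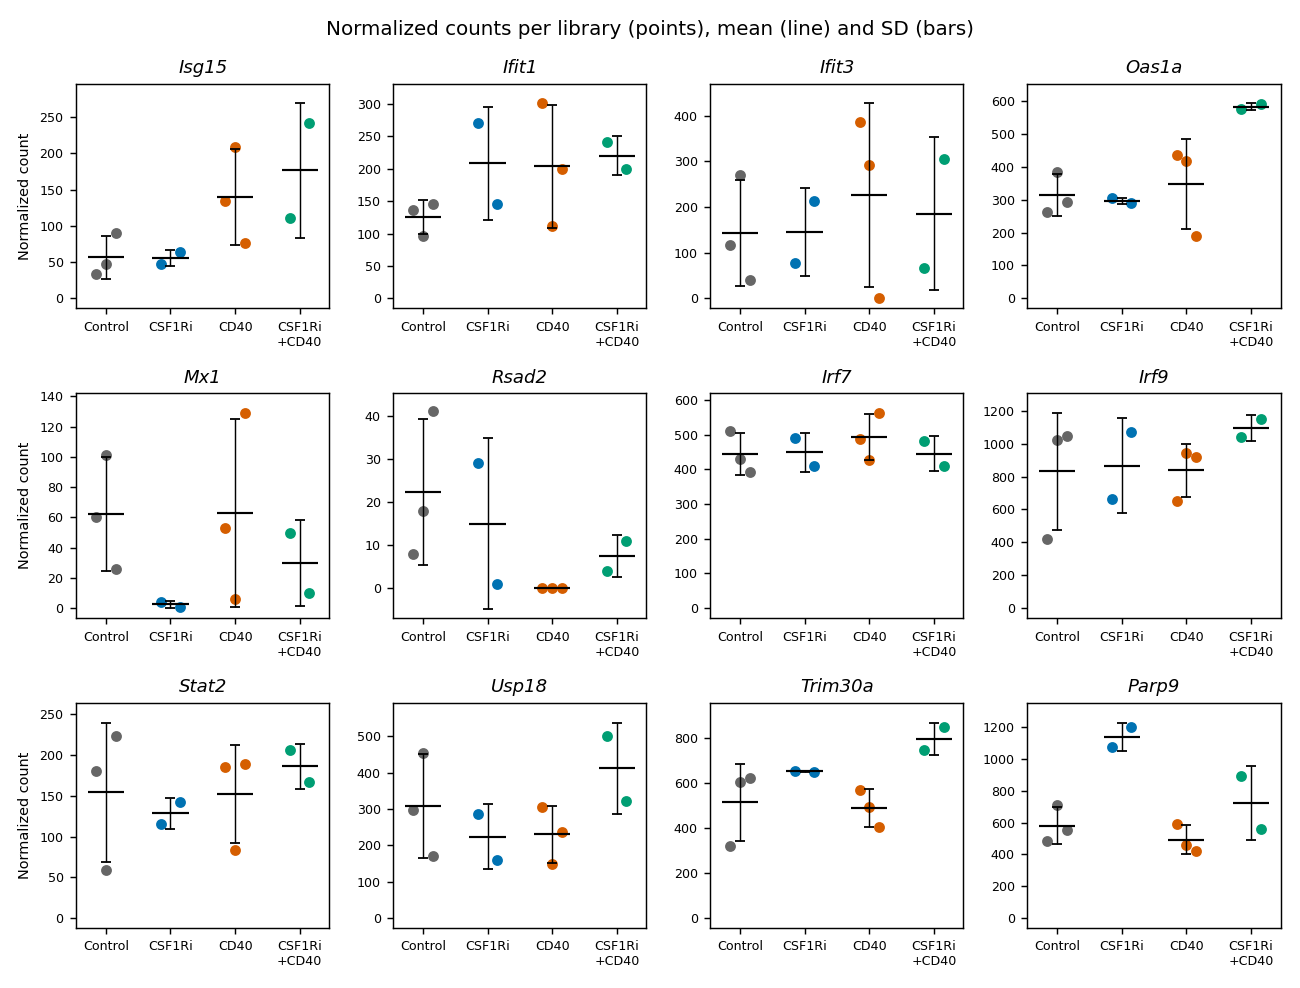
Normalized counts (y axis, with its own scale for each gene) of 12 members in each library (points), with group mean (line) and SD (bars), for 3 control, 2 CSF1Ri, 3 CD40 and 2 CSF1Ri+CD40 libraries. The 2 CSF1Ri+CD40 points of Oas1a (576 and 591) and the 2 CSF1Ri points of Parp9 (1074 and 1201) lie above all others of their genes, and Irf7 is level.

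The first comparison asks how the CSF1 receptor inhibitor differed from control. Parp9 was higher by 0.98 ± 0.312 (log2, SE; 1.98-fold; n = 2 against 3 libraries; limma adjusted p = 1), with a 95% interval of 0.30 to 1.67. Mx1 was lower, at -4.13 ± 1.34 (limma adjusted p = 1), on CSF1Ri values of 4 and 1. Mx2, kept by the filter through its inhibitor libraries, had 3.70 ± 1.68 (limma adjusted p = 1), given as a description. Parp9, Mx1 and Mx2, 3 of the 32 members (9.38%), had an unadjusted p under 0.05, against 4.08% of all tested genes, and 0 members passed after adjustment, against 0.00636% of genes. The groups did not overlap for 6 members (18.8%), against 21.9% of genes: Ifit1, Mx2, Trim30a and Parp9 were higher and Mx1 and Cmpk2 lower. By sign, 16 members were higher and 16 lower, with a median of -0.02, and the median of all genes was 0.02. The share without overlap lay below the background, and Mx2 is counted in both shares although the filter kept it through this contrast.

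The second comparison sets the CD40 antibody against the same control libraries. Rsad2 was at 0 in all 3 antibody libraries against a control mean of 22.3 ± 16.9 (n = 3), which is at least 7.43-fold lower when each antibody library is set to the floor of 3 counts, and at least 4.33-fold without Control 3. Its fitted difference of -4.27 ± 1.29 (limma adjusted p = 0.691) depends on the 1 count added. Isg15 was higher by 1.30 ± 0.617 (2.46-fold; limma adjusted p = 0.773), with a 95% interval of -0.05 to 2.65, and Zbp1 by 0.44 ± 0.282 (limma adjusted p = 0.830). Rsad2 was the only member with an unadjusted p under 0.05 (3.12%, against 6.39% of genes), and the only one whose groups did not overlap (3.12%, against 9.10% of genes). It is counted in both shares although the filter kept it only through libraries outside the CD40 group. After adjustment 0 members passed, against 0.00636% of genes. By sign, 17 members were higher and 15 lower, with a median of 0.05 against -0.01 for all genes, and without Control 1 that median was -0.24. CD40 3 alone held the lowest value of 9 members, among them Ifit3, Ifit3b, Oas1a, Oasl2, Isg20, Rtp4 and Bst2. It also held the highest value of 6 members, as did CD40 2. For several members the antibody group thus spanned a wide range.

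The third comparison sets the combined treatment against control. Isg15 was higher by 1.64 ± 0.689 (3.12-fold; n = 2 against 3; limma adjusted p = 0.914), with a 95% interval of 0.13 to 3.15. Oas1a was higher by 0.91 ± 0.406 (limma adjusted p = 0.914) and Trim30a by 0.69 ± 0.342 (limma adjusted p = 0.925). An unadjusted p under 0.05 was found for 2 members (6.25%), against 5.40% of genes, and an adjusted one for 0 members, against 0% of genes. The groups did not overlap for 5 members (15.6%), against 20.2% of genes: Ifit1, Oas1a, Isg20, Isg15 and Trim30a, all higher. By sign, 20 members were higher and 12 lower, with a median of 0.11, and the median over all genes was 0.00.

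All of these comparisons share the 3 control libraries, so their values are set side by side without a test of their likeness. On the log2 scale Isg15 differed from control by 0.09 with the inhibitor, 1.30 with the antibody and 1.64 with both. Ifit1 differed by 0.67, 0.60 and 0.82, Oas1a by -0.06, 0.07 and 0.91, and Parp9 by 0.98, -0.24 and 0.30. For 10 members, among them Irf7, Samhd1, Stat2, Bst2 and Zbp1, each of the 3 differences was within 0.5. The precision limits what the tests could show: the 95% interval stayed within 2-fold in either direction for 6 members with the inhibitor, 10 with the antibody and 6 with both. It stayed within 4-fold for 20, 19 and 20 members, so larger changes were outside the intervals for those genes but not for others such as Ifit3, Ifih1, Dhx58 or Mx2. Ifit3 was at 1 in CD40 3, Ifih1 at 2 in CD40 2 and Dhx58 at 0 in CSF1Ri+CD40 1.

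**Figure D4:**
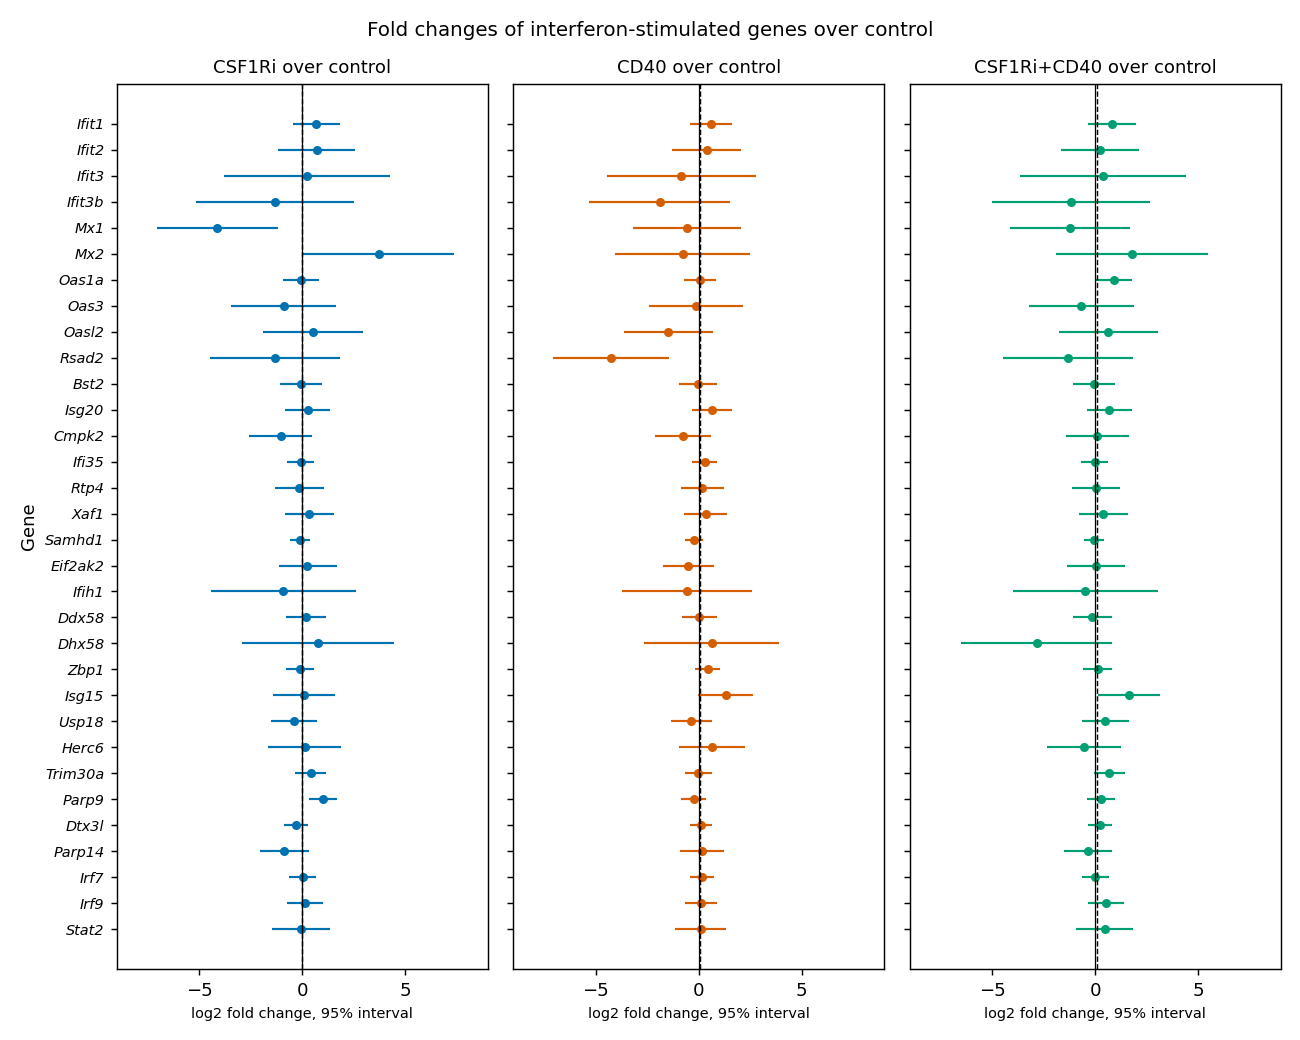
Log2 fold change over control (points) with its 95% interval (bars) for the 32 members in the 3 comparisons with control; the solid line marks 0 and the dashed line the members' median. The medians are -0.02, 0.05 and 0.11, and the intervals are narrow for Samhd1 and Irf7 and wide for Mx2, Ifit3 and Dhx58; points of Rsad2 and Mx2 with CD40 rest on a group at 0.

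The combined treatment was next set against each treatment alone. Over the antibody, Trim30a was higher by 0.71 ± 0.342 (limma adjusted p = 0.966) and Oas1a by 0.84 ± 0.406 (limma adjusted p = 0.966). Dhx58 was lower, at -3.47 ± 1.68 (limma adjusted p = 0.966), but without CSF1Ri+CD40 1, where it was at 0, the difference was 0.13. The groups did not overlap for 5 members (15.6%), against 15.0% of genes: Oas1a, Rsad2, Usp18, Trim30a and Irf9, all higher with both agents. Rsad2 is counted there although the filter kept it only through libraries outside the CD40 group. Rsad2 was at least 2.50-fold higher and Mx2 at least 5.67-fold higher against the floor of 3 counts per library. The Rsad2 bound was 1.33-fold without CSF1Ri+CD40 3, and that of Mx2 rested on CSF1Ri+CD40 1 alone. Here 0 members had an unadjusted p under 0.05 (4.96% of genes did) and 0 an adjusted one (0% of genes did). By sign 20 members were higher and 12 lower, with a median of 0.14, against 0.01 for all genes.

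Over the inhibitor, Oas1a was higher by 0.97 ± 0.445 (limma adjusted p = 1), Isg15 was higher by 1.55 ± 0.755 (limma adjusted p = 1), and Parp9 was lower, at -0.69 ± 0.342 (limma adjusted p = 1). With 2 libraries against 2, the groups did not overlap for 11 members (34.4%), against 33.3% of genes. Mx1, Oas1a, Isg20, Cmpk2, Zbp1, Isg15, Usp18, Trim30a, Dtx3l and Stat2 were higher and Parp9 lower. Again 0 members had an unadjusted p under 0.05 (3.58% of genes did) and 0 an adjusted one (0% of genes did). By sign 23 members were higher and 8 lower, with Rsad2 at exactly 0, and the median was 0.15 against 0.00 for all genes, of which 48.1% were higher. Without CSF1Ri+CD40 1 the members' median was 0.38.

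The interaction asks whether the combined treatment differed from the sum of the separate effects on the log2 scale. The members with the lowest p were Rsad2 (4.27 ± 2.04, limma adjusted p = 0.991), Cmpk2 (1.92 ± 0.987, limma adjusted p = 0.991) and Mx1 (3.50 ± 1.89, limma adjusted p = 0.991). For each, the inhibitor alone and the antibody alone had lower means than control or, for Mx1 with the antibody, a mean about equal to it. The Rsad2 value rests on CD40 libraries all at 0 and so on the 1 count added, and it ranged from 2.32 without CSF1Ri 6 to 6.22 without CSF1Ri 1. Only libraries outside the CD40 group kept Rsad2 in the filter. The Mx1 value ranged from 2.30 without CD40 2 to 4.60 without CSF1Ri+CD40 3. An unadjusted p under 0.05 was found for 0 members and 4.17% of genes, and an adjusted one for 0 members and 0% of genes. The members' median was 0.27 against -0.02 for all genes, 19 members being above and 13 below 0, and it was -0.16 without CD40 3, 0.01 without CSF1Ri+CD40 3 and 0.03 without Control 3.

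Taken over all pairs, the members' levels showed little shared variation across libraries. Over 496 pairs of members, the median Pearson correlation of log2 levels across the 10 libraries was 0.03, with 52.8% of pairs above 0, and over all pairs of tested genes it was 0.00, with 50.1% above 0. After group means were removed, the members' median was again 0.03, with 51.8% above 0. The closest pairs were Mx2 with Parp9 and Ifit3 with Oasl2 (each 0.84), and the most opposed was Samhd1 with Xaf1 (-0.87). Mx2 was at 0 in 6 of the libraries. Isg20, Rtp4 and Zbp1 correlated with each other at 0.79 to 0.82, and Eif2ak2 with Oasl2 at 0.83 and with Ifit3 at 0.76. In the other direction, Mx2 with Parp14 was at -0.79 and Ifih1 with Xaf1 at -0.75. The pairs named were picked from the ends of the 496, and the share of all gene pairs with such correlations was not computed. CD40 3 held the lowest value of Ifit3, Oasl2, Eif2ak2, Isg20 and Rtp4, and these correlations were not computed without it. All are descriptions over 10 libraries that share their group structure and scaling. The median deviation of the members from their own means ran from -0.34 in CD40 3 to 0.34 in CSF1Ri+CD40 3, and libraries of one group differed by 0.231 (pooled SD).

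Upstream of the members, 21 genes for interferon ligands were looked up, and 19 were at 0 in every library. Ifnz reached at most 3 normalized counts. Ifng, the type II ligand made by T cells, was the only ligand gene that passed the filter. It held 876, 1063 and 563 in control, 1272 and 1157 in CSF1Ri, 2659, 1949 and 203 in CD40, and 2145 and 2267 in CSF1Ri+CD40 libraries. Ifng was higher in every library of the inhibitor and combined groups than in control and ranged most widely with the antibody, and the combined treatment differed from control by 1.45 ± 0.819 (limma adjusted p = 0.925). The receptor and kinase genes were present: Ifnar1 had a control mean of 431 ± 133, Ifnar2 of 249 ± 68.4, Jak1 of 4999 ± 457 and Tyk2 of 252 ± 94.3 (n = 3 each). Irf1, a factor induced by interferon gamma, held 2207, 2476 and 1934 in control and 2740 and 2790 in CSF1Ri libraries. It held 2193, 1989 and 2039 in CD40 libraries, all within the control range. In CSF1Ri+CD40 libraries it held 3187 and 4252 (0.75 ± 0.211 over control, limma adjusted p = 0.743). Whether Irf1 follows Ifng was not tested.

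Of the pathway lists, 8 of 9 receptor and kinase genes, 9 of 9 STAT and IRF genes, 12 of 13 sensing genes and 7 of 8 brakes passed the filter, and 0 of them passed the test in either direction in any comparison. Among these genes the unadjusted p was under 0.05 in limma for at most 2 per list in the comparisons with control. A further list of 42 interferon-induced genes outside the members had 39 that passed the filter and 0 that passed the test. Of these 39, 28 were higher than control with the inhibitor, 26 with the antibody and 27 with both, with medians of 0.24, 0.18 and 0.33, and 5 had an unadjusted p under 0.05 in limma in each comparison. Over all tested genes the shares at that p were 4.08%, 6.39% and 5.40%, and 51.1%, 49.0% and 49.3% were higher. Ifitm1, a membrane protein that blocks viral entry, held 102, 217 and 114 in control, 346 and 410 in CSF1Ri, 590, 349 and 252 in CD40, and 844 and 467 in CSF1Ri+CD40 libraries. All 7 treated Ifitm1 values lay above control, and the combined difference of 2.20 ± 0.480 had an adjusted p of 0.485 in limma. The share of all genes with every treated library above control was not computed. Other genes of the list went the other way: Ifi203 had means of 2027 in control, 1684 in CSF1Ri, 1484 in CD40 and 1845 in CSF1Ri+CD40.

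Plasmacytoid dendritic cells are a strong source of type I interferon, and Bst2 is also one of their surface markers. Their other 7 markers summed to 556 to 1284 in control, 631 to 828 in CSF1Ri, 634 to 851 in CD40 and 714 to 807 in CSF1Ri+CD40 libraries, so the groups overlapped. Runx2, at 173 to 864, was the largest of the 7 in every library, so the sums say little about the other markers. Siglech, a defining marker of these cells, held 44, 28 and 62 in control, 20 and 0 in CSF1Ri, 45, 0 and 0 in CD40 and 0 in both CSF1Ri+CD40 libraries. Csf1r, the macrophage receptor that the inhibitor blocks, was at 30 and 41 in the combined libraries and at 99 to 235 in the others. Other macrophage markers went either way. With both agents Cd68 held 266 and 419, against 79 to 242 in control, and C1qc was at 0, against 34 to 47. The summed macrophage markers of the combined libraries overlapped control. Summed markers of several cell types lay apart from control in some groups. Among all tested genes, groups did not overlap for 21.9% with the inhibitor, 9.10% with the antibody and 20.2% with both. Such a share was not computed for sums. T cell markers held 91785 to 115292 in control, 130962 to 143627 in CSF1Ri, 95433 to 155458 in CD40 and 133931 to 137639 in CSF1Ri+CD40 libraries. Fibroblast markers held 1615 to 2778 in control against 415 to 461 in CSF1Ri, and keratinocyte markers 1092 to 2033 against 364 to 421. In the other groups both sums overlapped control. Fibroblast markers held 34 to 4858 in CD40 and 740 to 2620 in CSF1Ri+CD40 libraries. Keratinocyte markers held 320 to 1528 in CD40 and 458 to 2128 in CSF1Ri+CD40 libraries. Mast cell and basophil markers held 274 to 1282 in control and 606 to 1863 in CSF1Ri libraries. They were at 1748 to 13037 with the antibody and 1501 to 7148 with both agents. Across control libraries erythroid markers held 2940 to 15906, against 1318 to 2729 with the inhibitor, 876 to 1195 with the antibody and 13 to 501 with both. No marker of these lists was at 0 in every library. The part of such cells in the members' values, such as Isg15 and Oas1a with the combined treatment or Parp9 with the inhibitor, was not tested.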

How the data were processed

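Per the labels' protocols and the submitters' processing notes, libraries made without strand information gave 75-base paired reads. STAR aligned them to the GRCm38 (mm10) genome, HTSeq produced the gene counts, and the authors normalized with DESeq2. Versions and the annotation release are not given in the sources used here. The deposited values are scores, made by the authors by dividing gene counts by size factors and rounding, so the true read depth is unknown and count models were not run.

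The filter of 10 normalized counts in 2 libraries retained 15716 of 48825 genes. After 1 was added, log2 values were modelled on the 4 groups over the 10 libraries in limma 3.58.1, run in R 4.3.3 with a variance trend (residual degrees of freedom 6, prior 5.48). Tests of the 6 contrasts were two-sided, with Benjamini-Hochberg adjustment over all tested genes and a threshold of 0.05. The fit was tested on simulated data with changes set only in the CD40 group and only in genes of higher mean. Low members and groups of 2 libraries were not covered by it. Values in every library are given for members chosen by role and for the 3 members with the lowest p in each comparison, which alone have full statistics; other members are given by means, ranges and counts. Exon lengths and positions came from GENCODE vM21, and promoters from RefSeq (GRCm38.p6). Alternatives tried were other pseudocounts, filters and scalings, library weights, smaller sets of libraries, a replicate block and leaving out each library.

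The members, their roles and the pathway and marker lists were chosen with earlier results of these data known. An allele of the strain and a gene of the pathway are not reported here.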

Additional observations from a re-analysis of the deposited data

How the results depend on the processing

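Across 23 other settings, 0 members passed the test in each of the 131 counts that could be made, and the lowest adjusted p of a member was 0.207. Of 388 differences of named members, 387 kept their direction and their side of the threshold. These members were named for the lowest p in the same libraries, which favours a kept direction. Their side of the threshold could not differ where 0 members passed. Of 131 medians over the members, 123 moved by less than 0.231, the SD within groups. The interaction median of 0.27 was 0.00 with library weights, 0.02 with only libraries lacking Y-linked transcripts, and -0.15 without CD40 2 and CD40 3. With each library left out in turn, the interaction median ranged from -0.16 (without CD40 3) to 0.29, the CD40 over control median from -0.24 (without Control 1) to 0.10, and the CSF1Ri+CD40 over CSF1Ri median from 0.15 to 0.38 (without CSF1Ri+CD40 1). The CSF1Ri+CD40 over CD40 difference of Dhx58 ranged from -7.07 to 0.13, the last without CSF1Ri+CD40 1, where Dhx58 is at 0. The cause was not tested.

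Correlations of same-numbered departures from group means ran from -0.27 to 0.18. These values cannot decide whether replicate numbers pair the samples. They were not set against differently numbered libraries, and departures within such small groups depend on each other. The fit with the number as a replicate block also left out the CSF1Ri libraries: 0 members passed, and the medians were 0.07 for CD40 over control and 0.23 for the combination over control. Without those libraries and without the replicate block they were 0.07 and 0.10, again with 0 members passing, in a fit chosen after seeing the data. Read depth is unknown, and low members such as Mx2, Rsad2 and Ifit3b have wide intervals.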
